A study of Mus musculus with 2 samples.

Results

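The 10 genes of the voltage-gated calcium channel alpha-1 family, Cacna1a to Cacna1i and Cacna1s, were followed in J-RGCs, a retinal ganglion cell type of the mouse. They were taken by symbol from 24015 gene symbols, and all 10 were listed. The cells came from retinas at postnatal day 6. A mouse line with a transgene specific to J-RGCs made them express green fluorescent protein, and magnetic beads followed by flow cytometry isolated them. The single group held 2 libraries, A and B, each pooled from 5 to 6 animals of a different litter. The sources used here give neither the driver of the transgene nor the strain or sex of the animals. With 1 cell type, 1 age and no treatment, comparisons were possible between genes and between the 2 libraries, not between conditions.

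Voltage-gated calcium channels open when the membrane depolarises and let calcium into the cell. The alpha-1 subunit forms the pore and the voltage sensor and gives each channel its class. The presynaptic, high-voltage class holds the P/Q-type (Cacna1a), N-type (Cacna1b) and R-type (Cacna1e) pores, of which the P/Q- and N-types are best known for triggering transmitter release. The L-type class (Cacna1c, Cacna1d, Cacna1f, Cacna1s) carries long-lasting currents, with Cacna1c and Cacna1d in neurons, heart and endocrine cells, Cacna1f at photoreceptor and bipolar cell synapses, and Cacna1s in skeletal muscle. The T-type class (Cacna1g, Cacna1h, Cacna1i) opens near the resting potential and supports burst firing. High-voltage pores assemble with a cytoplasmic beta subunit and an extracellular alpha2delta subunit, whereas T-type pores do not require them.

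The coding bases of the high-voltage members can be compared at the alpha interaction domain, the site in the linker between the first and second repeats that binds the beta subunit. A motif from the consensus of this domain, 42 coding bases long, was searched in all reading frames of the protein-coding transcripts of GENCODE M21 (GRCm38). It was found in 7 members, all 4 L-type and all 3 presynaptic genes, and in no other of 21877 protein-coding gene names, a share of 0.032%. Not every transcript of these genes held the motif, which was in 5 of 9 Cacna1b, 3 of 4 Cacna1e and 3 of 5 Cacna1f coding transcripts. None of the 11 Cacna1g, 5 Cacna1h and 4 Cacna1i coding transcripts held it, which says only that this motif is not in those transcripts. As the motif came from the domain's consensus, its finding in high-voltage genes followed from that choice and does not test the family's division. The coding bases of the 3 presynaptic genes and of the 2 abundant L-type genes are shown because these 5 genes took most of the family's reads. Each line gives 54 bases, 5′ to 3′ on the sense strand, with the 42 bases of the searched motif in capitals. The capitals mark the motif and not the full extent of the domain.
Cacna1b: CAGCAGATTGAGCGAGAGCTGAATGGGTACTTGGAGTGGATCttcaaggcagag
Cacna1a: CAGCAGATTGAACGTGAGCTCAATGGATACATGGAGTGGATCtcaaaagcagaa
Cacna1e: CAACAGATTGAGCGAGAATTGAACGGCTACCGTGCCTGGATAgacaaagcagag
Cacna1c: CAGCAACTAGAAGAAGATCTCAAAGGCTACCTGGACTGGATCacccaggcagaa
Cacna1d: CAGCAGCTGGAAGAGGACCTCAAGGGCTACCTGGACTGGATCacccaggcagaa
Cacna1c and Cacna1d differed at 5 of the 54 bases and at 0 of the 18 encoded residues. Cacna1a and Cacna1b differed at 9 bases and 2 residues. Cacna1a and Cacna1e, also of the presynaptic class, differed at 18 bases and 3 residues, and Cacna1b and Cacna1d, of different classes, at 16 bases and 7 residues.

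The gene total was 7916204 counts in library A and 13744313 in library B. All 11 ganglion cell markers examined, among them Slc17a6, Rbpms, Pou4f2 and the type's own Jam2, exceeded 10 CPM (counts scaled to a gene total of 1000000) in both libraries. Their levels were not equal in the pools: Jam2 stood at 2344 CPM in A and 1203 in B, whereas Pou4f2 (486 and 1011 CPM) and Thy1 (333 and 679 CPM) had the larger value in B. Over the 11272 genes kept for the dispersion fit, the biological coefficient of variation between the libraries was 0.507. Nothing in the labels ties a sequencing date or lane to either library. Genes differ in length, so levels of different genes are compared as CPM per kilobase of summed exon (CPM per kb), and the level of 1 gene in the 2 libraries as CPM. In such a pool of cells, fewer cells with a transcript and fewer transcripts per cell cannot be told apart.

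Of the 10 members, 9 were detected, meaning at least 1 CPM in A and in B alike, against 46.8% of all gene symbols. The exception was the skeletal muscle gene Cacna1s. A level of 10 CPM or more in each library was met by 8 members, against 27.8% of symbols, and Cacna1f was the detected member that fell short. The 10 genes together held 8025 counts in A and 14525 in B. Their summed level differed little between the libraries, at 1014 CPM in A and 1057 CPM in B (1035 ± 30.4 CPM, SD, n = 2), although single members differed severalfold.

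**Figure D1:**
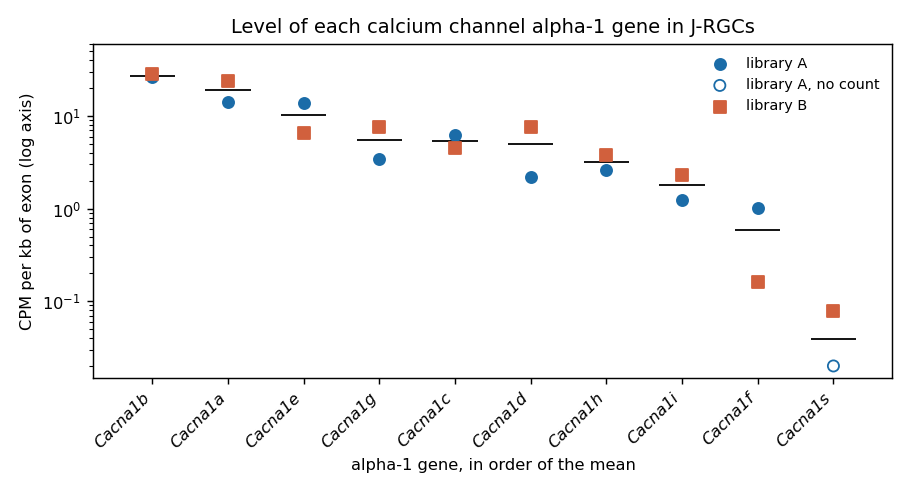
Level of each alpha-1 gene in CPM per kb of summed exon on a log axis, with circles for library A, squares for library B and a bar at their mean. Cacna1b is highest in both libraries at 26.1 and 28.6, and Cacna1s, with no count in A drawn as an open circle at the foot of the axis, is lowest.

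The presynaptic genes led the family. Cacna1b, the N-type pore, had 2054 counts in A and 3909 in B, or 259 and 284 CPM. The values lay close together, with a mean of 272 ± 17.6 CPM (SD, n = 2). With summed exons as the length it reached 26.1 CPM per kb in A and 28.6 in B, the highest of the family in each library. Its mean ranked 1245 among the 23621 symbols with a length.

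Cacna1a, the P/Q-type pore that takes over from the N-type at many maturing synapses, stood at 162 CPM in A and 274 CPM in B (1285 and 3761 counts). With summed exons as the length it was second to Cacna1b in both libraries, at 14.2 and 24.0 CPM per kb. The ratio of Cacna1b to Cacna1a was 1.84 in A and 1.19 in B, and over both libraries 1.43, with a 95% interval of 0.567 to 3.62 from counting error and the dispersion. The interval held 1, so these neighbours were not separated.

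Cacna1e, the R-type pore, went the other way between the libraries, with 350 CPM in A and 166 CPM in B (2767 and 2283 counts). It was the member with the most counts in A, but its summed exons are the longest of the family at 25.2 kb, against 9.94 kb for Cacna1b. Per length it stood at 13.9 CPM per kb in A, close to Cacna1a there, and at 6.58 in B, below Cacna1a, Cacna1d and Cacna1g. Cacna1b exceeded it 2.68-fold over both libraries (95% interval 1.05 to 6.82), a separation that was absent with the coding sequence as the length (1.03-fold, 0.404 to 2.63) or with the longest coding transcript (1.62-fold, 0.634 to 4.12).

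The L-type class was carried by Cacna1c and Cacna1d, and their order changed between the libraries. Cacna1c, the main cardiac and brain L-type pore, had 133 CPM in A and 96.1 CPM in B (1052 and 1321 counts). Cacna1d, an L-type pore that opens at more negative voltages, had 27.5 CPM in A and 97.2 CPM in B (218 and 1336 counts). Per length Cacna1c was 2.87-fold of Cacna1d in A and 0.589-fold in B. Of the summed L-type level per length, Cacna1c made up 66.2% in A and 36.4% in B, and Cacna1d 23.0% and 61.7%. Over both libraries their ratio was 1.09, with an interval of 0.469 to 2.55, so no order can be given from these libraries.

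The other L-type genes were low. Cacna1f, whose protein supports release at ribbon synapses, had 73 counts in A and 20 in B. These gave 9.22 CPM in A, with an exact 95% Poisson interval of 7.23 to 11.6, and 1.46 CPM in B, with an interval of 0.889 to 2.25. The intervals cover counting error only and leave out the spread between the libraries. The value in A was the higher. Cacna1s had 0 counts in A, where the floor of 3 counts is 0.379 CPM and the upper end of the exact 95% Poisson interval 0.466 CPM. In B it had 7 counts, or 0.509 CPM (interval 0.205 to 1.05). At this depth its level in A could not be told from that in B.

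All 3 T-type genes were detected above 10 CPM in both libraries, and each had its larger value in B. Cacna1g, the T-type pore of thalamic bursting, stood at 34.9 CPM in A and 77.9 CPM in B (276 and 1070 counts). Cacna1h stood at 25.6 and 36.7 CPM (203 and 504 counts). Cacna1i, the slowest-gating of the T-types, stood at 12.3 and 22.8 CPM (97 and 314 counts). Their order per length was the same in both libraries: Cacna1g at 3.44 and 7.68 CPM per kb, Cacna1h at 2.63 and 3.76, and Cacna1i at 1.24 and 2.32. Cacna1g exceeded Cacna1i 3.12-fold over both libraries (95% interval 1.23 to 7.96), while Cacna1h was separated from neither, at 1.79-fold over Cacna1i (0.683 to 4.71) and with Cacna1g 1.74-fold above it (0.727 to 4.18).

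Ordered by mean CPM per kb, the family ran Cacna1b (27.4), Cacna1a (19.1), Cacna1e (10.2), Cacna1g (5.56), Cacna1c (5.40), Cacna1d (4.94), Cacna1h (3.19), Cacna1i (1.78), Cacna1f (0.587) and Cacna1s (0.0389). Of the 9 neighbouring pairs in this order, 2 had an interval that excluded 1, Cacna1i over Cacna1f (3.03-fold, 1.0005 to 9.17) and Cacna1f over Cacna1s. The first of these lay at the edge and was lost under TMM (log2 ratio 1.41, interval -0.19 to 3.01), with the longest coding transcript (1.03, -0.57 to 2.63), with the coding length (1.57, -0.03 to 3.17), with intervals widened for 45 pairs and without library B, where the ratio was 1.22. The second was lost without library A, where it was 2.06. Cacna1e over Cacna1g, not separated per summed exon (log2 ratio 0.88, interval -0.40 to 2.16), was separated with the longest coding transcript (1.36, 0.08 to 2.64) and the coding length (2.26, 0.98 to 3.54). Of all 45 pairs, 33 had an interval that excluded 1, without adjustment for the number of pairs, and 23 after widening the intervals for 45 pairs. In 39 of the 45 pairs the same gene was higher in both libraries. Cacna1a exceeded Cacna1g 3.43-fold (1.42 to 8.28), Cacna1d 3.86-fold (1.61 to 9.27) and Cacna1h 5.98-fold (2.41 to 14.9).

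The measure of length moved some of these places. With the longest protein-coding transcript as the length, Cacna1b and Cacna1a had nearly equal means, at 27.9 and 27.5 CPM per kb. With the coding sequence alone, which is nearly equal among the members at 5.56 to 7.14 kb, Cacna1e rose to second place at 37.8 CPM per kb, beside Cacna1b at 38.9 and Cacna1a at 30.7. On both of these scales Cacna1c came next. Under all 3 measures Cacna1a, Cacna1b and Cacna1e held the first 3 places of the mean, and Cacna1h, Cacna1i, Cacna1f and Cacna1s the last 4. With the coding sequence, however, none of those first 3 was separated from Cacna1c. The ratios to it were 2.27 for Cacna1b (0.922 to 5.57), 1.79 for Cacna1a (0.735 to 4.34) and 2.20 for Cacna1e (0.898 to 5.40). With summed exons or the longest coding transcript, Cacna1b and Cacna1a were separated from Cacna1c and Cacna1e was not. Within single libraries the first place changed with the measure. With the coding sequence Cacna1e was first in A (51.3 CPM per kb, against 37.2 for Cacna1b) and Cacna1b in B. With the longest coding transcript Cacna1b was first in A, and Cacna1a in B (34.5 CPM per kb, against 29.2 for Cacna1b). The sources used here do not say which exons were counted.

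**Figure D2:**
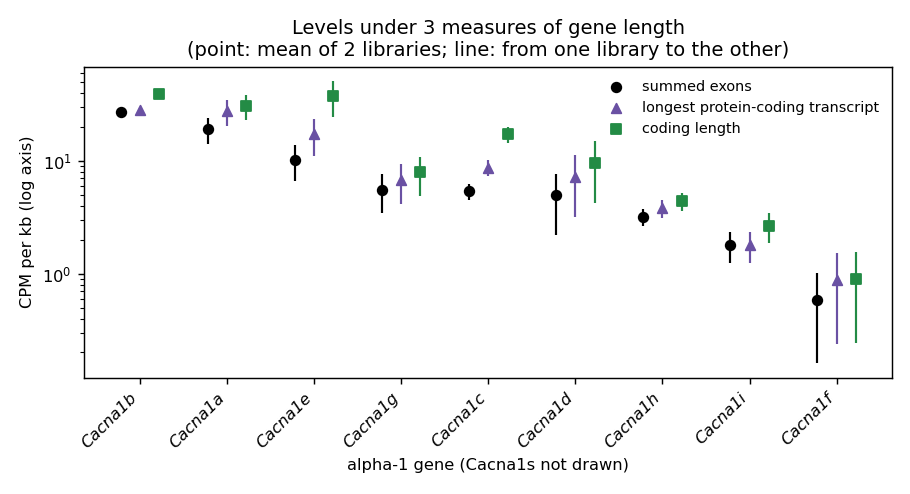
Mean level of 9 alpha-1 genes in CPM per kb on a log axis under 3 measures of length, with a line from the value in one library to that in the other. The means of Cacna1e range from 10.2 with summed exons to 37.8 with the coding sequence, whereas those of Cacna1b range from 27.4 to 38.9.

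By class, the presynaptic genes made up most of the family's level in both libraries. They took 76.4% of the summed alpha-1 CPM per kb in A and 69.3% in B (72.8% ± 5.00, SD, n = 2). The L-type genes took 13.3% in A and 14.6% in B (14.0% ± 0.895). The T-type genes took 10.3% in A and 16.1% in B (13.2% ± 4.10). As shares of counts, without length, the presynaptic class held 76.1% in A (Wilson 95% interval 75.1 to 77.0) and 68.5% in B (67.8 to 69.3). The L-type class held 16.7% (15.9 to 17.6) and 18.5% (17.9 to 19.1) of counts, and the T-type class 7.18% (6.63 to 7.76) and 13.0% (12.5 to 13.6). These intervals cover counting error only and leave out the spread between the libraries. The L-type share per length had the smallest SD of the 3 classes while its 2 main genes changed places, as the bars of family make-up show.

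**Figure D3:**
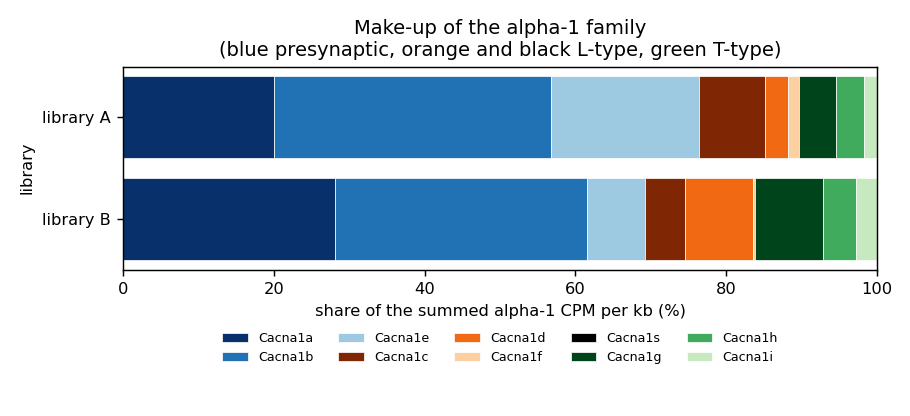
Share of each gene in the summed alpha-1 CPM per kb, in percent, for library A (upper bar) and library B (lower bar), coloured by class. Cacna1b takes 36.8% and 33.5%, Cacna1e 19.5% and 7.71%, and Cacna1d 3.08% and 9.02%.

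The 2 libraries were then compared gene by gene with an exact two-sided binomial test of the counts, with Benjamini-Hochberg adjustment over the 14107 genes with at least 10 counts. The call required an adjusted p under 0.05 together with a ratio of 2-fold or more either way. This compares these pools of cells and not conditions, and separately amplified libraries differ by more than counting error. Of the 9 members with enough counts 4 were called, 2 higher in A and 2 higher in B, against a background of 42.6% of all tested genes, of which 10.3% were higher in A and 32.3% higher in B. The members' share is near that background. The median log2 ratio of B over A was 0.51 over the 9 members and 0.53 over all tested genes, so values near the latter mark a gene that moved with the typical gene.

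The genes called higher in A were Cacna1e and Cacna1f. For Cacna1e the log2 ratio of B over A was -1.07 (adjusted p = 6.00e-151, exact binomial test), and for Cacna1f -2.31 (adjusted p = 1.35e-15, exact binomial test). Those called higher in B were Cacna1d, at 1.80 (adjusted p = 5.22e-86, exact binomial test), and Cacna1g, at 1.15 (adjusted p = 2.94e-36, exact binomial test). Other tested genes within 2-fold of a member's mean CPM give a scale for these ratios. A lower ratio was held by 11.0% of the 1267 such genes for Cacna1e and 2.56% of the 3400 for Cacna1f, and a higher ratio by 2.15% of the 3018 for Cacna1d and 13.4% of the 3141 for Cacna1g. Calls in either direction were made for 15.8%, 54.0%, 25.6% and 26.9% of these genes, in the same order. The remaining members changed by less than 2-fold, with log2 ratios of 0.87 for Cacna1i, 0.75 for Cacna1a, 0.51 for Cacna1h, 0.13 for Cacna1b and -0.47 for Cacna1c.

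Scaling by TMM instead of the gene total lowered the ratios of B over A by 0.38 on the log2 scale before the pseudocount, and DESeq2 size factors by 0.48. With the pseudocount low genes moved less, and Cacna1f went from -2.31 to -2.64 under TMM and -2.71 under DESeq2 size factors. Of all calls, 75.7% were higher in B under the gene total, 60.9% under TMM and 56.5% under DESeq2 size factors. Cacna1e, Cacna1f and Cacna1d remained called in the same direction under both scalings, that is 3 of 9 members against 37.7% of all tested genes under TMM and 37.1% under DESeq2 size factors. Cacna1g kept its direction but fell short of 2-fold, at log2 ratios of 0.77 and 0.68. Cacna1b changed sign, to -0.25 and -0.34, and thus had no direction that held across the scalings.

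**Figure D4:**
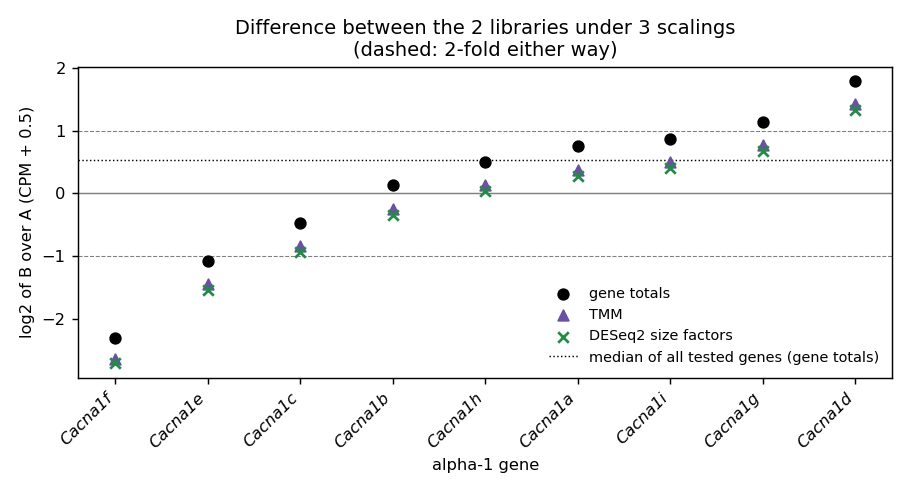
Log2 ratio of library B over library A for the 9 alpha-1 genes with at least 10 counts, from CPM with a pseudocount of 0.5, under 3 scalings. Dashed lines mark 2-fold and the dotted line the median of all tested genes at 0.53. Cacna1f and Cacna1e lie below the lower dashed line and Cacna1d above the upper one under each scaling.

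Other cells in the sort were examined beside the low and shifting members. For Cacna1f, rod markers were detected for 4 of 7 genes with a sum of 26.7 CPM for A and 27.9 for B, cone markers for 1 of 5 genes at 2.53 and 5.68 CPM, and bipolar markers for 2 of 6 genes at 124 and 9.90 CPM. The bipolar sum was set in A by the glutamate receptor gene Grm6 (96.4 and 0.582 CPM) and by Car8 (23.9 and 1.75 CPM), while Trpm1, the cation channel of ON bipolar cells, stood at 2.78 and 2.47 CPM and Pcp2 at 0 and 0.0728 CPM. Of the rod genes Gnat1 was at 0 and 0.291 CPM and Pde6a at 0 and 0.218 CPM. Cacna1f was higher in A, as were Grm6, Car8, Pde6b (11.7 and 5.31 CPM) and Nr2e3 (9.85 and 4.15 CPM), whereas Rom1 (3.03 and 9.09 CPM) and Sag (0.884 and 7.06 CPM) were higher in B. The part of such cells in the Cacna1f reads was not tested.

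For the L-type genes of contractile cells, mural and smooth muscle markers were detected for 5 of 6 genes, with a sum of 418 CPM for A and 114 for B. Rgs5 led them at 342 and 82.4 CPM, followed by Pdgfrb at 51.9 and 10.3 CPM, while the smooth muscle genes Acta2 (2.78 and 1.67 CPM) and Myh11 (0.126 and 2.84 CPM) were low. Cacna1c was likewise the higher in A, at 133 against 96.1 CPM, and the part of mural cells in it was not tested. Skeletal muscle markers were detected for 0 of 6 genes, with a sum of 2.02 and 2.33 CPM, beside a Cacna1s of 0 and 0.509 CPM. Microglia markers, detected for 5 of 6 genes, summed to 268 and 331 CPM, and amacrine markers, detected for 2 of 7, to 60.5 and 66.9 CPM. Most of the amacrine sum came from Gad2 alone, at 58.4 and 56.8 CPM. Gad1 (1.01 and 4.80 CPM), Slc6a9 (0.758 and 4.44 CPM) and Slc32a1 (0.126 and 0.728 CPM) were low, and Chat, Th and Slc18a3 had at most 1 count in each library.

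Beside Cacna1d and Cacna1g, called higher in B, stood other lists with the larger sum in B. Endothelial markers were detected for 1 of 5 genes and summed to 3.66 CPM for A and 23.1 for B. All 4 tested were called higher in B, against 32.3% of all tested genes. These genes were low, and calls were more common at low levels. Of the tested genes within 2-fold of the mean CPM of Cacna1f, 54.0% were called in either direction. Horizontal cell markers were detected for 3 of 4 genes and summed to 14.5 and 30.5 CPM. Of the 3 tested, 2 were called higher in B under the gene total and 1 under TMM. Of the 11 ganglion cell markers Pou4f2 and Thy1 were called higher in B under the gene total and not under TMM or DESeq2 size factors. Jam2 was called higher in A under those 2 scalings only, and Rbpms under DESeq2 size factors only (log2 ratio of B over A -1.08). The part of these differences between the pools in the members' values was not tested.

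The partners of the pore were read as well. Counts of detected genes in the lists that follow stand against the background of 46.8%, and calls, made under the gene total, against 10.3% higher in A and 32.3% higher in B. All 4 beta subunit genes, which bring high-voltage pores to the membrane, were detected, led per length by Cacnb3 (31.3 CPM per kb in A and 49.4 in B) and Cacnb4 (30.3 and 36.2). Cacnb1 stood at 15.3 and 13.1 CPM per kb and Cacnb2 at 2.77 and 3.16. None of the 4 was called between the libraries. Summed per kb of summed exon, the beta genes were 1.25-fold of the 7 high-voltage alpha-1 genes in A and 1.42-fold in B. The summed exons of the beta genes span 4.01 to 13.2 kb, and their coding sequences 1.45 to 2.03 kb. The ratio therefore depends on the measure of length, is given for summed exons only, and is no measure of subunit proportions.

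Of the alpha2delta genes, which aid trafficking and include the targets of gabapentin, 3 of 4 were detected. Cacna2d2 (24.6 and 39.1 CPM per kb) and Cacna2d1 (19.2 and 28.9) were far above Cacna2d4 (0.307 and 0.315). Cacna2d3, at 4 counts in A and 118 in B, was the gene called higher in B. Summed per kb of summed exon, this list was 0.694-fold of the high-voltage alpha-1 genes in A and 0.967-fold in B. This ratio too is given for summed exons only and depends on that choice.

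**Figure D5:**
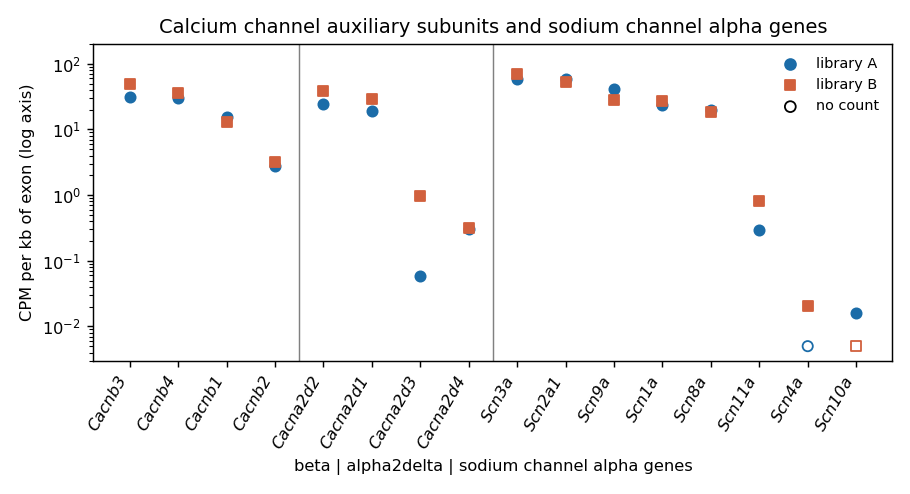
Levels of the beta and alpha2delta genes and of 8 sodium channel alpha genes in CPM per kb of summed exon on a log axis, with circles for library A, squares for library B and open symbols at the foot for no count. Cacnb3 and Cacnb4 lead the beta genes, Cacna2d2 and Cacna2d1 the alpha2delta genes, and Scn3a and Scn2a1 the sodium channel genes.

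Voltage-gated sodium channel alpha subunits, the family closest in build, were detected for 7 of 9 genes. Scn3a stood at 59.2 CPM per kb in A and 69.3 in B, and Scn2a1 at 57.7 and 53.1. Summed per kb of summed exon, the only measure of length given for this ratio, the sodium channel genes were 2.85-fold of the calcium channel alpha-1 genes in A. In B they were 2.32-fold (2.58 ± 0.377, SD, n = 2). None of their 5 abundant genes was called between the libraries. Scn11a, at 0.298 and 0.822 CPM per kb, was called higher in B. The related leak channel gene Nalcn was called higher in B, at 3.12 and 9.64 CPM per kb.

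Around the pore, all 16 active zone and release genes were detected. Snap25, a SNARE protein of vesicle fusion, stood at 1613 CPM per kb in A and 1905 in B, and Syt1, the calcium sensor of release, at 147 and 240. In this list 12 genes were not called, while Rims2 and Unc13a were among those called higher in B and Syt2 was called higher in A. Of 21 channel regulators 15 were detected, with the calmodulin gene Calm2 highest (1186 and 1814 CPM per kb), 3 genes called higher in B and none in A. Rrad, an inhibitor of high-voltage channels, and Cabp2 had no count in either library, which at the floor of 3 counts allows up to 0.379 CPM in A and 0.218 CPM in B, and 29.3% of all symbols had none.

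Genes that respond to or clear calcium were also present. Of the calcium-activated potassium channels 5 of 6 were detected, and 2 of 6 at 10 CPM or more in each library, with Kcnma1, the large-conductance channel, at 10.6 and 12.3 CPM per kb and Kcnn2 at 3.82 and 5.09. Of the intracellular release channels 5 of 6 were detected, with the ryanodine receptor gene Ryr2 at 6.59 and 5.77 CPM per kb and the inositol trisphosphate receptor gene Itpr1 at 3.25 and 2.23. Of the pumps and exchangers 10 of 11 were detected, with the sodium-calcium exchanger genes Slc8a1 (67.1 and 78.7 CPM per kb) and Slc24a3 (80.4 and 55.0) highest by the mean of the libraries, although in B the pump gene Atp2a2 was above both (49.3 and 81.6). Atp2a3 had no count. The calls in these 3 lists under the gene total were Kcnn3, Itpr2, Itpr3 and Atp2b3, each higher in B. Atp2b3 (log2 ratio of B over A 1.10) was not called under TMM (0.72) or DESeq2 size factors (0.63), nor were Rims2, Unc13a and Scn11a of the lists above, and Rem2, 1 of the 3 regulators called, was not called under DESeq2 size factors (0.92). Under DESeq2 size factors Itpr1 (-1.01), Slc24a3 (-1.02) and Scn9a were called higher in A.

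The genes nearest to Cacna1b, the leading member, in the log2 levels of both libraries were Usp24 (256 and 280 CPM), Trio (263 and 294 CPM) and 4930470H14Rik (251 and 279 CPM), at distances of 0.030, 0.048 and 0.055 log2 units. Likeness over 2 libraries of 1 cell type describes a shared level and nothing more.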

How the data were processed

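RNA from sorted J-RGCs was extracted with PicoPure columns and made into libraries with the Nugen Ovation Ultralow V2 kit, per the labels' protocols. For each library the authors deposited a table of raw read counts by gene symbol. Trimmomatic 0.32, TopHat2 2.0.10, HTSeq 0.6.1 and mm9 are named in the submitters' processing notes. The sources used here state no settings, annotation or use of strand, and without strand overlapping and antisense genes share reads. Summary lines were left out of the totals. Genes received 26.8% of the listed reads of A and 30.9% of those of B, and 18.5% and 20.8% aligned to several places.

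Counts were scaled to 1000000 gene counts (CPM), with a pseudocount of 0.5 in log2 ratios. Lengths came from GENCODE M21 by symbol (23621 of 24015 matched, 912 through an older symbol) and may differ from the exons counted. No coordinates are given, because that annotation is on another build. The interval of a ratio of 2 genes combined counting error with the trended dispersion of an edgeR 4.0.16 intercept-only fit (R 4.3.3). With 1 group there was no contrast for its quasi-likelihood test. DESeq2 1.42.0 gave alternative size factors. Python 3.11.15, numpy 2.4.6, pandas 2.3.3 and scipy 1.17.1 were used for the rest, and the statistics were tested on simulated data.

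The members, lists and tests were chosen with earlier results of these data known. Named genes were all members, the 2 detected genes of each pathway list with the highest mean CPM per kb and any without a count, and the 3 genes nearest to the leading member. Other subunit genes, called genes and markers were named after their values were seen, and some list genes are not reported here by name. The remaining marker lists, for Müller glia (5 of 6 genes detected) and astrocytes (1 of 4), were read in the same way. They summed to 461 CPM in A and 439 in B for Müller glia, and to 46.1 and 29.9 CPM for astrocytes. Dkk3 (317 and 223 CPM) and Glul (87.0 and 129 CPM) gave most of the Müller sum, while Rlbp1 stood at 0 and 1.60 CPM. Of the 6 Müller genes tested, 1 was called higher in A and 2 higher in B under the gene total, against 10.3% and 32.3% of all tested genes. Amplified reads carry no molecular identifiers. The Poisson and Wilson intervals and the floors cover counting error only, whereas the intervals of ratios also include the trended dispersion. Alternatives varied the detection rule, scaling, length, interval, fold and library.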

Additional observations from a re-analysis of the deposited data

How the results depend on the processing

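The number of detected members (8 to 9) and of detected genes over all pathway lists (53 to 69, 66 as reported) stayed within 1.5 times under every alternative run, but calcium-activated potassium channels fell from 5 to 2 of 6 at 10 CPM or more. The L-type share of 14.0% was 17.6% without length correction, 16.4% with the longest coding transcript and 18.4% with the coding length. The coding length was chosen after seeing the data in place of a protein table, which was not used here. The T-type share of 13.2% was 10.1% without length correction, 11.9% with the longest coding transcript and 9.91% with the coding length. These moves were under its SD of 4.10, which is wide because the 2 libraries differed (10.3% and 16.1%). The presynaptic share moved by less than 1 SD. Of 9 neighbouring pairs, 2 were separated as reported, 1 with intervals widened for 45 pairs, 1 with TMM, 3 without length correction and 1 without either library. Of all pairs 33 were separated, 25 without library A and 18 without library B, where the 9 pairs with Cacna1s could not be computed and a single library widens the interval by construction. Cacna1e over Cacna1g (log2 ratio 0.88, not separated) was separated without length correction (2.19, interval 0.91 to 3.48), with the longest coding transcript (1.36), with the coding length (2.26) and without library B (2.01, 0.19 to 3.83). Some log2 ratios of neighbours changed sign. Cacna1a over Cacna1e (0.90) was -0.24 without length correction and -0.30 with the coding length. Cacna1g over Cacna1c (0.04) was -1.02 without length correction, -0.37 with the longest coding transcript, -1.12 with the coding length and -0.064 with TMM, and -0.87 to 0.76 with a library left out. With a library left out, Cacna1e over Cacna1g ranged from -0.22 to 2.01, Cacna1c over Cacna1d from -0.76 to 1.52 and Cacna1d over Cacna1h from -0.27 to 1.04. Of the 4 members called between the libraries, 1 was left at 4-fold, 1 of those higher in A and 0 of those higher in B. The calls higher in B numbered 1 with TMM, 1 with DESeq2 size factors and 4 at 1.5-fold. Over all tested genes, 13.9% were called at 4-fold and 60.2% at 1.5-fold, in either direction. The log2 ratio of Cacna1b, 0.13 as reported, was -0.25 with TMM and -0.34 with DESeq2 size factors. The test between the libraries could not be run with either left out. Except for the changes that follow from length, fold or fewer libraries by construction, the cause was not tested. No paired analysis was possible because there is 1 group. With 2 libraries, the value of Cacna1s is limited by its few counts and those of the other members by the spread between the libraries.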
